A study of Mus musculus with 24 samples.

Results

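The effect of miR-125b that is common to every time and doxycycline condition of this culture experiment was measured by setting 12 libraries with miR-125b against 12 libraries with a control construct in 1 model. The model carried the condition and the replicate number as covariates, so each of the 24 libraries of the series was a member and none was left out. The cells are mouse fetal liver cells from E12.5-13.5 embryos of a B6J.129(Cg) strain with the allele Gt(ROSA)26Sortm1.1, in which the CAG promoter drives cas9* and EGFP. The cells of both arms carried sgGata1, a guide that targets Gata1, and are named Gata1s in the labels. GATA1s is the short form of the blood transcription factor GATA1. The second transgene was miR-125b in 1 arm and miR-ctrl in the other. Each arm was sampled after 48 h of doxycycline at 1 µg/mL (Day2), after 10 days (Day10), after 13 days (Day13), and at day 13 with doxycycline withdrawn on day 10 (Day13WD), with 3 libraries in each of the 8 groups. The sources used here do not say whether a library comes from 1 embryo or a pool, nor whether libraries of 1 arm and number come from the same culture. Cells without sgGata1 were not part of the design, so every value below is a difference on a Gata1s background.

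MicroRNAs are short RNAs that guide Argonaute proteins to messenger RNAs, mostly through pairing of the seed, bases 2 to 8 of the microRNA, with the 3′ untranslated region (UTR). The paired messenger is then translated less and degraded faster, usually by a modest amount per target. One human copy of miR-125b lies on chromosome 21, and trisomy of that chromosome together with GATA1s is the setting of the megakaryoblastic leukemia of Down syndrome. Megakaryocytes are the cells that shed platelets. The series title names ARID3A, a DNA-binding protein of the ARID family, as the target under study.

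The mature microRNA is shown first because its seed defines the sites searched for in the genes that fell, with the seed in capitals. The sequences are RefSeq entries on GRCm38.p6, written 5′ to 3′, and both mouse loci of miR-125b, on chromosome 9 (41581940 to 41581961, plus strand) and chromosome 16 (77646279 to 77646300, plus strand), give the same mature form. miR-125a, a relative encoded on chromosome 17, has the same seed.
mmu-miR-125b-5p: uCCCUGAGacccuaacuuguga
mmu-miR-125a-5p: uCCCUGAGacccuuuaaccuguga

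The 3′ UTR sites that match this seed are shown for genes that carried a match and were lower with miR-125b, each with the 14 bases before it. They were read on the transcript strand from GENCODE M21 transcripts (GRCm38), and capitals mark the 7-base match CTCAGGG, extended to the 8-base match CTCAGGGA where an A follows. Arid3a is first because it held 6 matches, 2 of them with 8 bases. The lines give both of these, then 1 site each for 5 further targets known from earlier work, then 2 genes, M6pr and Cln6, that were on no list and were chosen here after their values were seen.
Arid3a, chr10:79952887-79952894, plus strand: gtggcctcctgtgcCTCAGGGA
Arid3a, chr10:79953820-79953827, plus strand: ccatgggtaactggCTCAGGGA
Abtb1, chr6:88840246-88840252, minus strand: tacccatctcctacCTCAGGG
Zfp385a, chr15:103314795-103314802, minus strand: ggaacaccccagatCTCAGGGA
Lactb, chr9:66955453-66955460, minus strand: attagttctttacaCTCAGGGA
Tor2a, chr2:32762002-32762009, plus strand: aatgtgaacggcaaCTCAGGGA
Lin28b, chr10:45378798-45378805, minus strand: gacaaagaactttgCTCAGGGA
M6pr, chr6:122317300-122317307, plus strand: gtctctcctgctggCTCAGGGA
Cln6, chr9:62851892-62851899, plus strand: tcttttctgctgttCTCAGGGA

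The libraries held 14694900 to 23755245 counts. Mir125b-1, Mir125b-2, Mir125a and the host gene Mir99ahg were at 0 counts throughout. A count of 0 allows 3 counts of a library's total, and the level of the microRNA was not detectable in these libraries. Gata1 (chromosome X, 7959260 to 7978071, minus strand) had 205 to 419 CPM (counts scaled to a common library total) with miR-125b, with a median of 298, and 194 to 514 with control, with a median of 346. Its log2 fold change of -0.20 ± 0.08 (SE) did not pass the test (edgeR adjusted p 0.150), and gene counts do not separate GATA1s from the full-length form. The summed CPM of 6 megakaryocyte markers lay between 2480 and 5322 with miR-125b and between 2258 and 6065 with control. Erythroid markers summed to 64.2 to 146 and 62.3 to 131 CPM with Slc4a1 at 0 in all libraries. Hepatocyte markers summed to at most 4.48 CPM with Ttr at 0, and B cell and stromal markers to under 1 CPM. The control Day13WD library of replicate 1 stood apart, with 3.31% of its counts on mitochondrial genes against 1.28% to 1.97% in the other 23. Y-linked genes differed between the replicate numbers, with sums of 156 to 243 CPM in number 1, 2.50 to 51.2 in number 2 and 76.4 to 107 in number 3. Within number 2 the sums were 27.5 to 51.2 CPM with miR-125b and 2.50 to 30.4 with control, and the part of this difference in the results was not tested.

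Of the 13419 genes tested, 650 differed between the arms at an edgeR adjusted p under 0.05, which is 4.84% of the genes. With miR-125b 345 were higher (2.57% of genes) and 305 lower (2.27%). The genes that rose did so by more, with a median log2 fold change of 0.56 in size against 0.34 for those that fell. They were also less abundant, with a median average log2 CPM of 3.62 against 4.82 for the genes that fell and 4.6 for all genes tested. A change of at least 1 on the log2 scale was found for 87 higher and 23 lower genes. No gene had its 12 miR-125b libraries all above or all below its 12 control libraries (0% of genes in either direction).

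**Figure D1:**
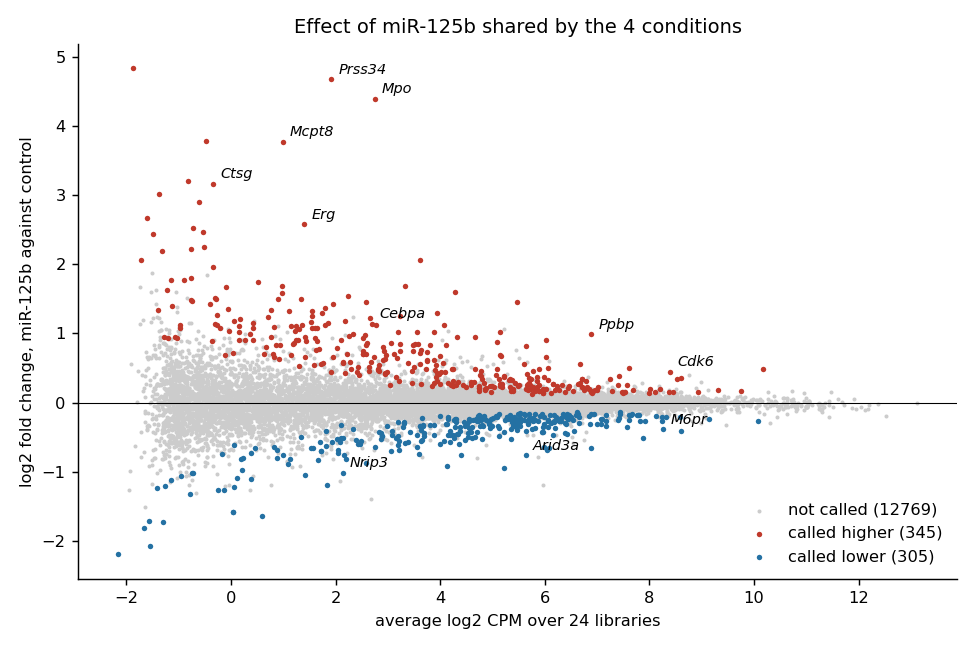
Log2 fold change of miR-125b against control for each gene (vertical axis) by its average log2 CPM over the 24 libraries (horizontal axis). The 345 genes called higher (red) reach further from 0 than the 305 called lower (blue), and the largest changes are at low abundance.

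Direction was more uniform when each miR-125b library was compared with the control library of its own condition and number. In 12 of 12 such pairs the difference had 1 sign for 84 called higher and 54 called lower genes. Among all genes tested 89 (0.663%) were higher and 66 (0.492%) lower in 12 of 12 pairs. At least 11 pairs went the same way for 411 of the 650. The replicate number mattered for these calls. Without it in the model 130 genes passed, all of them among the 650, and on counts summed over the 4 conditions for each arm and number 45 passed, 43 of them among the 650. Single libraries moved the count to between 418 and 726, with 418 without control Day13WD replicate 3 and 433 without miR-125b Day13WD replicate 1. Without the control Day13WD library of replicate 1, the one that stood apart, 680 genes passed and 576 of them were among the 650. All 24 genes named below for the size of their change passed without it, as did the 8 neutrophil genes, 10 of 11 targets from earlier work, 8 of 10 platelet genes and 2 of 4 cholesterol genes.

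Arid3a was among the genes that fell. It had 26.7 to 57.5 CPM with miR-125b, with a median of 32.8, and 49.5 to 76.3 with control, with a median of 62.8. The ranges overlapped because of the libraries labelled Day13. There the miR-125b libraries had 45.4, 57.5 and 53.7 CPM against 49.5, 61.5 and 71.9 in control, while the 9 other miR-125b libraries had at most 41.3 CPM. The miR-125b libraries labelled Day13WD, after withdrawal, had 31.4, 35.6 and 26.7 CPM, so the named target was lower with doxycycline withdrawn than with it continued. An exchange of the Day13 and Day13WD labels was not tested, and both conditions are called by their labels throughout. The means were 37.3 ± 10.0 and 62.2 ± 9.18 CPM (SD, n = 12 in each arm here and below). The log2 fold change was -0.76 ± 0.11 (SE; edgeR adjusted p 0.000232), with Arid3a lower in 12 of 12 pairs. Arid3a passed in each of the 42 alternative fits, with a highest adjusted p of 0.0499 on the summed counts.

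Abtb1 and Zfp385a moved with Arid3a. Abtb1, which encodes an ankyrin repeat and BTB domain protein, had 30.4 to 68.6 CPM with miR-125b (median 49.4) and 57.0 to 106 with control (median 75.2). It was lower in 12 of 12 pairs, with a log2 fold change of -0.64 ± 0.09 (edgeR adjusted p 0.000354). Zfp385a, a zinc finger protein known from megakaryocytes, had 247 to 467 CPM with miR-125b (median 346) and 356 to 530 with control (median 437). It was lower in 11 of 12 pairs, with a log2 fold change of -0.41 ± 0.06 (edgeR adjusted p 0.00058). Both ranges overlapped, and for Zfp385a the 3 Day13 pairs were at 356 against 371, 467 against 435 and 413 against 413 CPM. Abtb1 and Zfp385a, like Arid3a, passed in all 42 alternatives.

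The list of 54 miR-125b targets from earlier work had 46 members tested. Of these 10 fell, 1 rose and 35 did not pass, so that 23.9% were called against 4.84% of all genes tested. Below 0 were 38 of the 46 log2 fold changes. The median was -0.081 against -0.0039 over all genes tested. Beside the 3 above, the members that fell were Lactb (-0.53), a mitochondrial protein, Ptpn18 (-0.47), a tyrosine phosphatase, Tor2a (-0.41), a torsin, Klf13 (-0.35) and Lin28b (-0.34), the RNA-binding protein that blocks let-7 maturation. The kinase genes Rps6ka1 (-0.19) and Mapk14 (-0.17) fell least. Lin28b had 28.2 to 60.8 CPM with miR-125b (median 37.9) and 42.3 to 59 with control (median 49.8), and it was lower in 11 of 12 pairs. Cdc25c, a cell cycle phosphatase, was the member that rose (0.18, edgeR adjusted p 0.0204). Among members that did not pass were the apoptosis genes Mcl1 (-0.09) and Bak1 (-0.08) and the p53 target Trp53inp1 (-0.24). Of the 11 calls 6 were found without the replicate number in the model, and 3 (Abtb1, Arid3a and Zfp385a) on the summed counts.

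**Figure D2:**
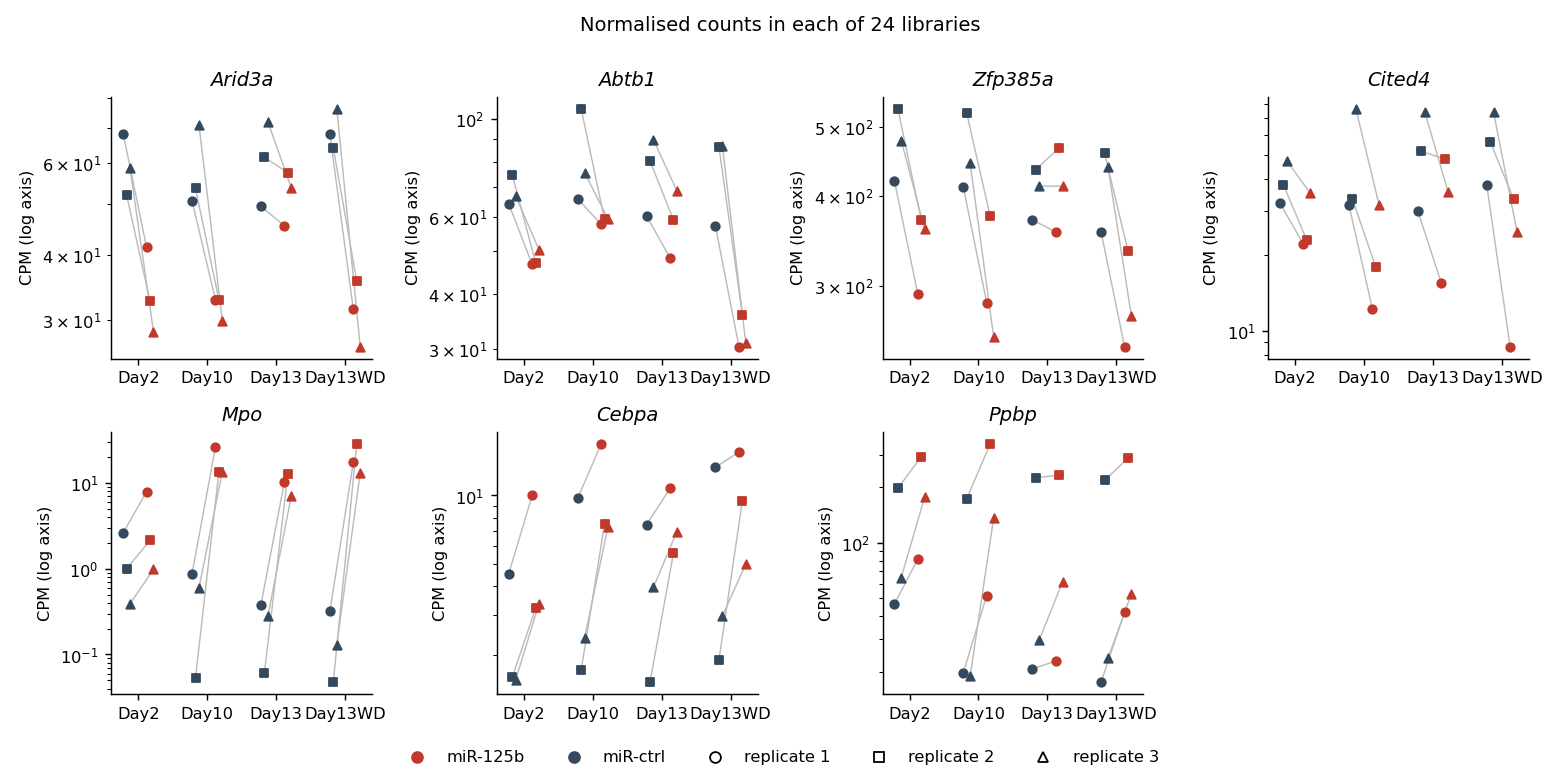
CPM (log axis) in every library for 7 genes, by condition, with control in dark grey and miR-125b in red. Marker shape gives the replicate number and grey lines join the 2 arms of a pair. Arid3a, Abtb1, Cited4, Mpo, Cebpa and Ppbp go 1 way in 12 of 12 pairs and Zfp385a in 11.

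The seed match was found in 38.5% of the genes that fell and 17.3% of all genes. An annotated 3′ UTR was found for 11678 of the genes tested, and the longest one was searched on the transcript strand. CTCAGGG was present for 111 of 288 genes called lower and 52 of 334 called higher (15.6%). The 8-base match CTCAGGGA, which contains the 7-base one, was in 6.15% of all, 17% of lower and 3.89% of higher genes. The UTRs of the lower genes were longer, with a median of 1580 bases against 1381 for higher genes and 1329 for all. Genes were split into 3 classes of about equal size by UTR length. Among those with the shortest UTRs, 20 of 206 with a match were called lower (9.71%) against 52 of 3691 without (1.41%). In the middle class the shares were 5% and 2.31%, and in the longest class 5.03% and 1.83%. Binding was not measured, so a match only says that these letters are in the UTR.

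The shift of the genes with a match was small in size. The 718 genes with an 8-base match had a median log2 fold change of -0.049, and 64.5% of them were below 0. The 1301 with only a 7-base CTCAGGG had -0.027, and the 873 with only TCAGGGA, the match to bases 2 to 7 followed by A, had -0.014. The 8786 with no match had 0.0028, with 48.5% below 0. With 3 or more matches the median was -0.078 in 66 genes, of which 74.2% were below 0. By condition the median of the 8-base genes was -0.079 at Day2, -0.019 at Day10, -0.019 at Day13 and -0.079 at Day13WD.

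**Figure D3:**
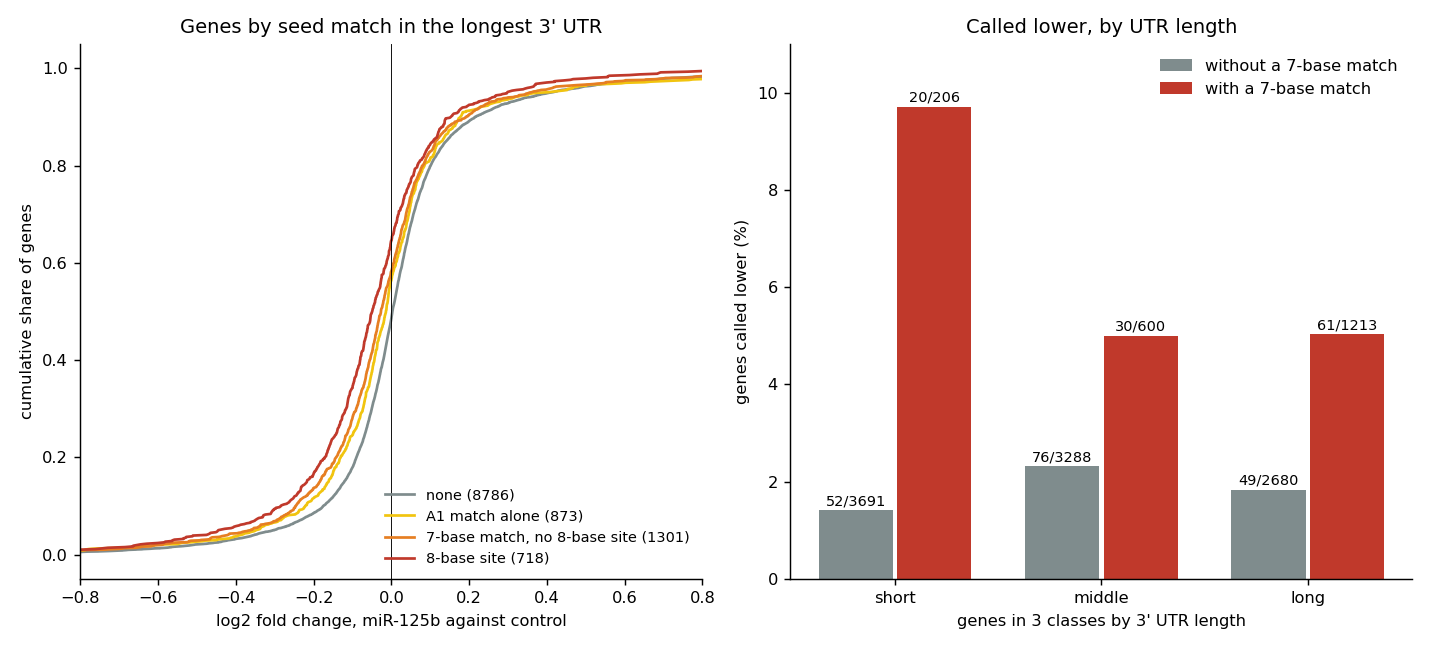
Left, cumulative share of genes (vertical axis) by log2 fold change (horizontal axis) for 4 classes of seed match, with the 8-base class furthest to the left. Right, percent of genes called lower in each of 3 classes of UTR length, with (red) and without (grey) a 7-base match, with counts over the bars. The share is higher with a match in each class, at 9.71%, 5% and 5.03%.

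Matches were also counted by the size of the fall. Genes lower by at least 0.5 on the log2 scale held a match in 22 of 80 (27.5%), and genes lower by less in 89 of 208 (42.8%). M6pr, the smaller mannose 6-phosphate receptor that carries enzymes to lysosomes, fell from 316 to 394 CPM with control (median 340) to 240 to 342 with miR-125b (median 253). Its log2 fold change was -0.39 ± 0.05 (edgeR adjusted p 9.95e-05), and it had the lowest p of the genes that fell. Cln6, a protein of the endoplasmic reticulum needed for lysosome function, had 47.5 to 73.4 CPM against 71.2 to 124.9, a log2 fold change of -0.47 ± 0.07 (edgeR adjusted p 0.000533). The ranges of Cln6 overlapped by little, as did those of M6pr.

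The 12 genes with the largest falls among those of fair abundance and uniform direction were, beside Arid3a, mostly without a match. Cited4, which binds the coactivators CBP and p300, had 8.66 to 48.2 CPM with miR-125b (median 23.8) and 29.9 to 76.4 with control (median 42.7). It fell by 0.95 ± 0.16 on the log2 scale (edgeR adjusted p 0.00174). Nrip3 had the largest fall of the 12 (-1.02), followed after Cited4 by the alpha globin gene Hba-a1 (-0.92), whose reads may be shared with a near-identical copy, and the phosphatase Ppm1h (-0.87). AI661453 (-0.81), the serotonin transporter Slc6a4 (-0.75), the semaphorin receptor Plxna4 (-0.72), the actin-binding Cap2 (-0.70), BC080696 (-0.69), protein kinase C beta (Prkcb, -0.69) and the lipid-binding Sec14l2 (-0.69) completed the group. Of all 24 genes named for the size of their rise or fall, 8 passed without the replicate number in the model and 7 on the summed counts. Of these 12, Arid3a, Sec14l2 and Plxna4 held CTCAGGG. Nrip3, Cited4, Ppm1h, AI661453, Slc6a4, Sec14l2 and Arid3a were lower in 12 of 12 pairs.

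Genes of neutrophil granules and their regulators rose in part. Of 28 on the list 21 were tested, 8 rose (38.1%, against 2.57% of all genes tested) and none fell. The median log2 fold change was 0.63. Because only genes above a low count limit were tested, this count leaves out 7 members. The limit also favours rises, since a member near 0 in control is tested through its miR-125b libraries and can only be seen to rise. Ctsg, Cebpe and Elane were such members, with control means of 0.135, 0.074 and 0.069 CPM. The count of 8 and the median are raised by them to an extent that was not tested. Mpo, the myeloperoxidase of primary granules, had 0.98 to 28.5 CPM with miR-125b (median 12.8) and 0.0478 to 2.60 with control (median 0.35). The highest miR-125b libraries were those of Day10 and Day13WD, the lowest those of Day2, where 2 of 3 lay within the control range. The log2 fold change of Mpo was 4.40 ± 0.56 (edgeR adjusted p 0.000192), with 12 of 12 pairs higher.

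Ctsg, the granule protease cathepsin G, had 0.116 to 2.68 CPM against 0 to 0.573, with 2 to 46 counts in miR-125b libraries and 0 to 12 in control libraries. Its log2 fold change was 3.17 ± 0.44. Cebpa, the transcription factor that directs granulocyte formation, had 3.21 to 16.8 CPM with miR-125b (median 7.40) and 1.53 to 13.3 with control (median 2.68). The arms overlapped because replicate number 1 was high in both, but each of 12 pairs was higher with miR-125b, for a log2 fold change of 1.14 ± 0.16 (edgeR adjusted p 0.000232). Ms4a3, a marker of granulocyte and monocyte progenitors, rose by 1.5, and Cebpe (2.43), Elane (2.06), Clec12a (1.06) and Nkg7 (0.95) rose too. Prtn3 (0.63), S100a9 (1.07), S100a8 (0.33) and the regulator Spi1 (0.08) did not pass. The summed CPM of the 6 neutrophil markers was 22.3 to 97.1 with miR-125b (median 44.1) and 5.24 to 41.8 with control (median 22.5). In bulk RNA a larger number of cells of a type and more RNA per cell cannot be told apart. Of the 8 calls, 4 were found without the replicate number in the model and Ctsg and Mpo on summed counts.

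The mast cell and basophil list gave 2 strong rises among 22 tested members (9.09%, against 2.57% of all genes tested), and none fell. Prss34, a serine protease of basophils and mast cells, had 0.184 to 18.1 CPM with miR-125b (median 7.42) and 0 to 1.29 with control (median 0.111). All 4 control libraries of replicate number 3 had 0 counts, where the miR-125b libraries had 3 to 152. The log2 fold change of Prss34 was 4.67 ± 0.38 with the lowest p of all genes (edgeR adjusted p 4.10e-07), and it was lost only on the summed counts (adjusted p 0.174). Mcpt8, the basophil protease, had 0.0973 to 9.10 CPM against 0 to 0.673, and rose by 3.77 ± 0.46 in 12 of 12 pairs. In control Prss34 and Mcpt8 were near the count limit, with medians of 0.111 and 0.159 CPM. Both may have been tested only through the miR-125b libraries, and could then only be seen to rise. How far this raised the share of 9.09% was not tested. Other genes of these cells did not pass, with log2 fold changes of -0.36 for Cpa3, 0.48 for Ms4a2, 0.65 for Hdc and -0.18 for Kit. The list's median was 0.036, and its 6 summed markers lay between 28.6 and 262 CPM with miR-125b and between 14.8 and 330 with control.

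Megakaryocyte and platelet genes moved both ways. Of 33 tested, 8 fell, 2 rose and 23 did not pass, with a median of -0.17. The share called was 30.3%, against 4.84% of all genes tested. The members that fell were mostly parts of platelet receptors, namely Gp1bb (-0.52), Gp9 (-0.42), Gp5 (-0.31) and Gp1ba (-0.31) of the von Willebrand factor receptor, the thrombin receptors F2r (-0.26) and F2rl3 (-0.24), and Treml1 (-0.66). Nbeal2, needed for alpha granules, fell by 0.36 ± 0.06 from 155 to 258 CPM (median 214) to 131 to 218 (median 163), and its UTR held an 8-base match. Ppbp, a platelet chemokine, went the other way, with 22.8 to 345 CPM (median 109) against 17.5 to 226 (median 38). The libraries of replicate number 2 were high in both arms for Ppbp, and each of 12 pairs was higher with miR-125b, for a log2 fold change of 0.99 ± 0.22 (edgeR adjusted p 0.0132). The platelet adhesion receptor Selp rose by 1.49 ± 0.22 at a low level, 0.671 to 6.97 against 0.43 to 1.73 CPM.

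The integrin genes Itga2b (-0.16) and Itgb3 (-0.29) did not pass, and neither did Thbs1 (-1.20, adjusted p 0.121). The fits kept different platelet calls, with F2r, Nbeal2 and Selp without the replicate number in the model and Gp1bb, Gp9 and Treml1 on the summed counts. Without the Day13WD libraries 2 of the 10 calls were left, and without replicate number 3 there was 1. The median of the list was 0.028 at Day2, -0.046 at Day10, -0.26 at Day13 and -0.38 at Day13WD.

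Erythroid genes gave 4 falls and 3 rises among 34 tested (20.6%, against 4.84% of all genes tested), with a median of -0.085. Kel, a red cell surface protein, had 32.7 to 80.2 CPM against 33.7 to 109 and fell by 0.42 ± 0.08, in 12 of 12 pairs. Fech, the last enzyme of heme synthesis, fell by 0.28 ± 0.06. The embryonic globin gene Hbb-y fell (-1.21) at a mean of 0.528 against 1.30 CPM, while the embryonic Hbb-bh1 rose (1.10) at 1.40 against 0.629. The water channel Aqp1 (1.00) and Rhag (0.52) also rose. Without the replicate number in the model Fech alone passed, and on summed counts Kel alone.

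Among 34 blood transcription factors 4 fell and 2 rose (17.6%, against 4.84% of all genes tested). Erg, an ETS factor that is also encoded on human chromosome 21, had 0.243 to 13.6 CPM with miR-125b (median 3.41) and 0 to 3.14 with control (median 0.407). It was highest in replicate number 1 of both arms and rose by 2.58 ± 0.44 in 12 of 12 pairs (edgeR adjusted p 0.00149). Cebpa is described above. Arid3a, its relative Arid3b (-0.34), Ets2 (-0.53) and Mafk (-0.18), a partner of NF-E2, fell. Gata2 (-0.22), Fli1 (-0.13), Tal1 (-0.11) and Runx1 (0.10) did not pass. Of the 6 calls, Arid3a alone passed without the replicate number in the model, and Arid3a and Erg on summed counts.

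**Figure D4:**
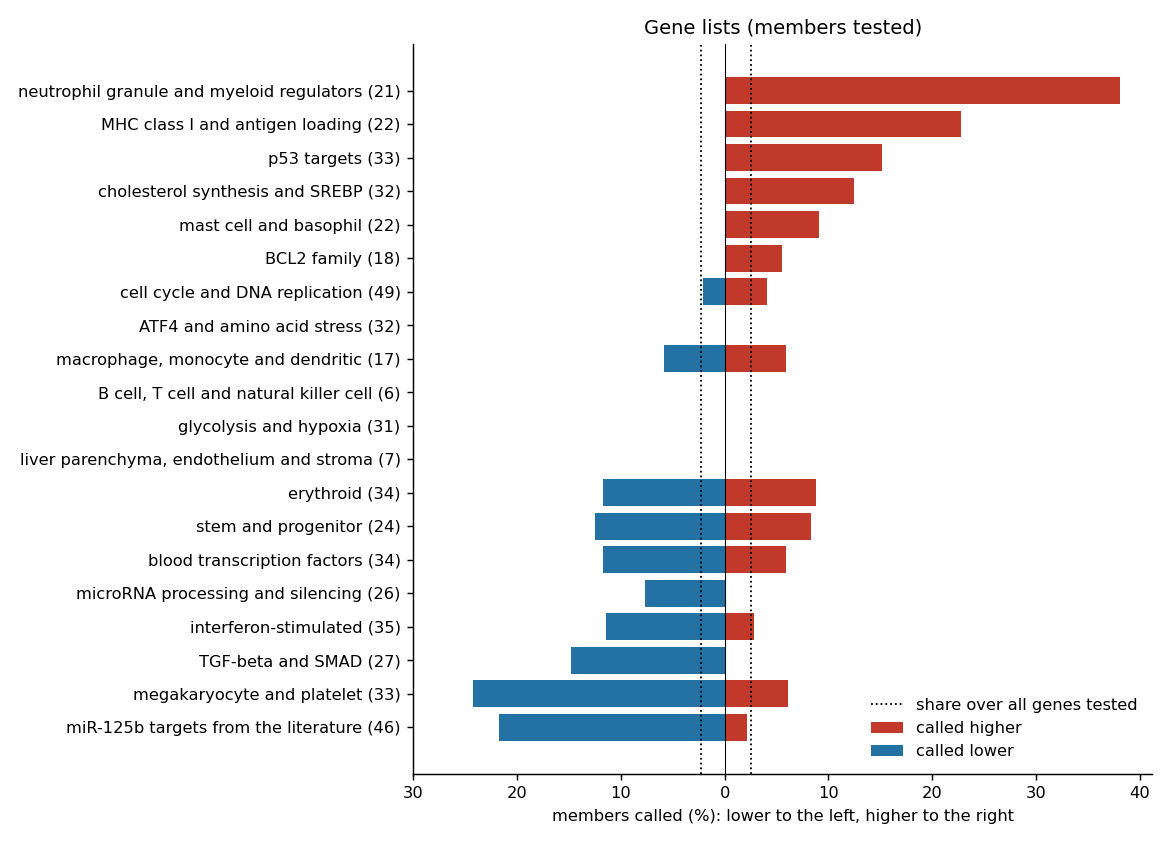
Percent of the tested members of each gene list called higher (to the right, red) or lower (to the left, blue), with the number tested in brackets. Dotted lines give the shares over all genes tested, 2.57% higher and 2.27% lower. Neutrophil genes reach furthest to the right with 8 of 21, and megakaryocyte genes and targets from the literature furthest to the left with 8 of 33 and 10 of 46.

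Sterol genes rose in part. Of 32 cholesterol and SREBP genes tested 4 rose and none fell, and the list median was 0.10. The genes that rose included Acat2 (0.38), which joins acetyl groups at the start of the pathway, and Insig1 (0.29), which holds back SREBP. Sc5d (0.27), a late enzyme of the synthesis, was another. Acat2 had 148 to 272 CPM with miR-125b (median 191) and 122 to 211 with control (median 140), and 10 of 12 pairs were higher. The arms overlapped for Acat2. Neither Acat2, Insig1 nor Sc5d passed without the replicate number in the model or on summed counts. Of 42 alternatives, the call was lost in 15 for Acat2 and in 25 for Sc5d.

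The 12 genes with the largest rises at fair abundance also included Tcrg-C1 (1.69), a T cell receptor gamma constant segment, the atypical cadherin Celsr1 (1.54), the receptor Ptk7 (1.45), the guanine nucleotide exchange factor Arhgef40 (1.29), the glycosyltransferase B3gnt5 (1.26), the corepressor Dach1 (1.23) and 4933431E20Rik (1.18). Arhgef40 had 8.44 to 40.3 CPM against 3.68 to 17.8, and Dach1 4.35 to 11.4 against 1.41 to 6.07. Celsr1 had 1.95 to 13.0 CPM against 0.161 to 7.88. Each of these 3 was higher in 12 of 12 pairs although the arms overlapped. T cell markers (Cd3e, Cd3g and Lck) summed to 3.66 to 7.87 CPM with miR-125b and 4.13 to 7.06 with control.

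**Figure D5:**
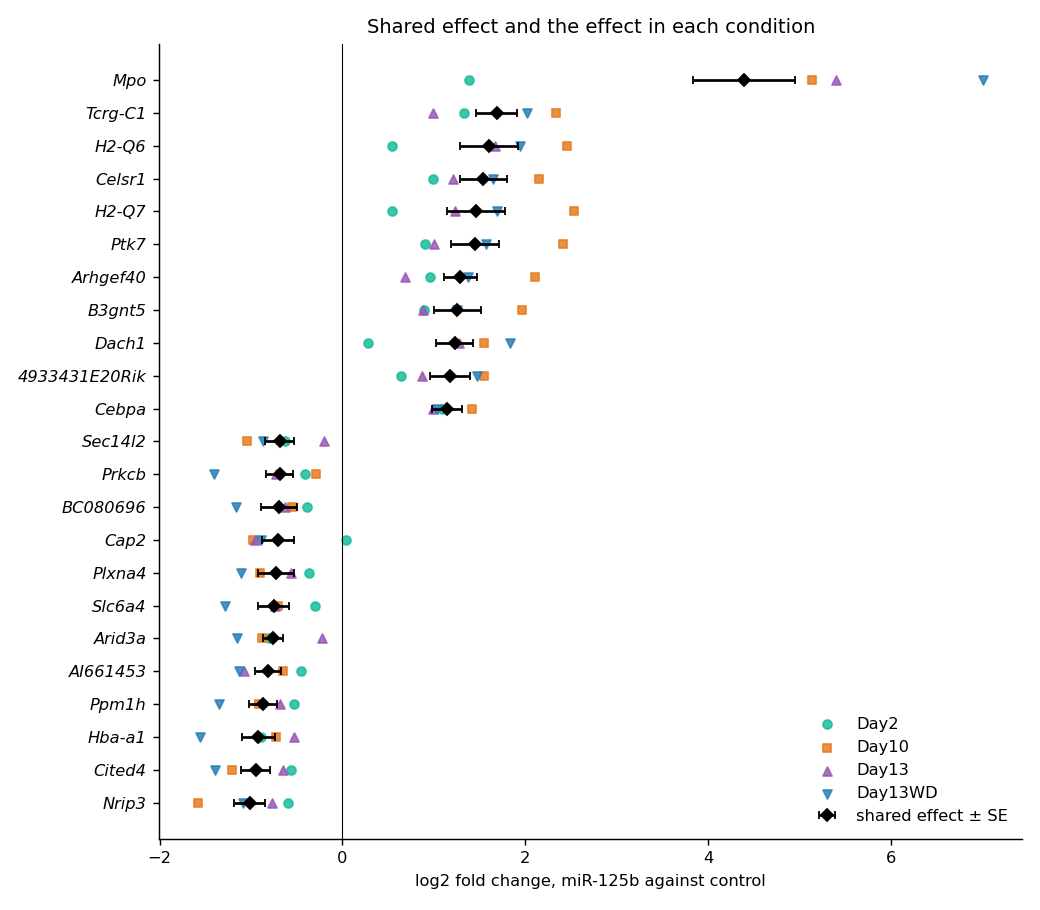
Shared log2 fold change with its SE (black diamonds) and the fitted effect in each condition (coloured markers) for 23 of the 24 genes with the largest changes at fair abundance. All 11 higher genes shown are above 0 in each condition, and of the lower genes Cap2 at Day2 (0.04) is above 0.

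Genes of class I antigen presentation rose in part. Of 22 tested, 5 rose (22.7%, against 2.57% of all genes tested) and none fell, with a median of 0.13. Nlrc5, which switches on class I genes, had 5.48 to 17.1 CPM (median 10.2) against 2.68 to 10.7 (median 5.91) and rose by 0.86 ± 0.15 (edgeR adjusted p 0.00104). B2m, the common light chain, rose by 0.34 ± 0.07 from a mean of 323 to 417 CPM. H2-Q6 (1.60), H2-Q7 (1.46) and H2-Q10 (1.04) rose, but they are near-identical copies and their reads may be divided wrongly. The classical H2-K1 (0.21) and H2-D1 (0.15) did not pass. H2-Q6 and H2-Q7 passed without the replicate number in the model, and no member did on summed counts. Interferon-stimulated genes went mostly the other way, with a median of -0.11 and 14.3% of 35 called against 4.84% of all genes tested. There were 4 falls (Parp14, -0.30, Oas2, -0.63, Rsad2, -0.53, and Ifih1, -0.19) and 1 rise (Usp18, 0.39). Parp14 alone of these 5 passed without the replicate number in the model, and none on summed counts.

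Of 33 p53 targets 5 rose (15.2%, against 2.57% of all genes tested) and none fell, with a median of 0.11. By condition the median was 0.203 at Day2, 0.504 at Day10, -0.0848 at Day13 and 0.0183 at Day13WD, so the rise was mostly that of Day2 and Day10. Pltp, which transfers phospholipids between lipoproteins, rose by 2.47 ± 0.39 at a low level (0.11 to 2.54 against 0 to 0.83 CPM). It passed in the 41 alternatives that tested it. With a control median of 0.0917 CPM, Pltp may have been tested only through its miR-125b libraries, and could then only be seen to rise. Ak1 (0.84), an adenylate kinase, Tnfrsf10b (0.59), a death receptor, Pmaip1 (0.33), a proapoptotic protein, and Sesn1 (0.25) were the others. Ak1 and Pltp passed both without the replicate number in the model and on summed counts. Cdkn1a, a main p53 target, did not pass (0.20). Among 18 genes of the BCL2 family Pmaip1 was the sole call (5.56%, near the 4.84% over all genes tested).

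TGF-beta signalling gave 4 falls (14.8%, against 2.27% of all genes tested) and no rise among 27 tested. The genes that fell included some that the pathway itself induces, namely the repressors Skil (-0.42 ± 0.07), Smad7 (-0.32) and Pmepa1 (-0.47). Skil had 15.0 to 57.8 CPM (median 28.8) against 21.9 to 66.9 (median 34.4) and was lower in 12 of 12 pairs. None of the 4 passed without the replicate number in the model or on summed counts. The receptors and SMADs moved less or did not pass, with Tgfbr1 at -0.20, Smad5 at 0.20 and Smad4 at -0.09.

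In the cell cycle list 2 of 49 rose and 1 fell, near the share over all genes, and the median was 0.046. Cdk6, a kinase of the G1 phase, had 303 to 508 CPM (median 364) against 210 to 484 (median 280). It rose by 0.44 ± 0.08 in 11 of 12 pairs (edgeR adjusted p 0.00114), and the call was lost in 1 of the alternatives, the model without the replicate number (adjusted p 0.105). Ccnd1, its cyclin partner, rose by 0.47, and E2f2 fell by 0.26. These 2 calls were less firm, lost in 25 of 42 alternatives for Ccnd1 and in 22 of 42 for E2f2. Both were lost without the replicate number in the model and on summed counts. Stem and progenitor genes gave 2 rises (Erg and Igf2bp2, 0.95) and 3 falls (Lin28b, Ikzf2, -0.30, and Igf2bp3, -0.23) among 24. The share called was 20.8%, against 4.84% of all genes tested. Of these calls Lin28b alone passed without the replicate number in the model and Erg alone on summed counts. Of the macrophage genes Itgam rose (1.77) at 0.144 to 1.03 against 0 to 0.335 CPM, and Fcgr3 fell (-0.60), among 17 (11.8% called). Itgam and Igf2bp2, at no more than 0.335 and 0.40 CPM with control, were tested through their miR-125b libraries and could only be seen to rise. Neither Itgam nor Fcgr3 passed without the replicate number in the model or on summed counts. The microRNA pathway list had 2 falls among 26 (7.69% called), Lin28b and the silencing cofactor Tnrc6a (-0.23), which passed in neither of these fits.

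Several lists held no call. None of 32 genes of the ATF4 amino acid response, of 31 glycolysis and hypoxia genes, of 6 lymphoid genes or of 7 liver, endothelial and stromal genes passed. The glycolysis list had a median of 0.098 in the shared effect, but 0.17 at Day2, 0.57 at Day10, -0.26 at Day13 and -0.13 at Day13WD.

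Whether the effect was the same in the 4 conditions was tested with an interaction term. No gene passed (0% of genes at an edgeR adjusted p under 0.05), while 2306 had an unadjusted p under 0.05 and DESeq2 called 666. The lowest adjusted p, 0.0568, was shared by several genes, among them Mpo and Zfp385a. The log2 fold change of Mpo was 1.39 at Day2, 5.13 at Day10, 5.40 at Day13 and 7.01 at Day13WD. That of Zfp385a was -0.48, -0.60, 0.01 and -0.56, and that of Arid3a -0.80, -0.87, -0.22 and -1.15 (interaction adjusted p 0.127). The count of interaction calls ran from 0 to 785 when single libraries were left out, with 785 without miR-125b Day10 replicate 2 and 510 without control Day13WD replicate 1. A count of 0 therefore does not show that the conditions acted alike.

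Sizes did vary by condition over the 650 called genes. The median effect of the genes called higher was 0.38 at Day2, 0.78 at Day10, 0.25 at Day13 and 0.60 at Day13WD. For the genes called lower it was -0.28, -0.40, -0.19 and -0.46. The smallest values were thus those of the libraries labelled Day13 in both directions. These condition effects come from the libraries that made the calls, so they describe the calls and test nothing. The sign was the same in all 4 conditions for 564 of the 650 genes, and in all 3 replicate numbers for 626.

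The effect was also compared between replicate numbers, and 7 genes passed that interaction (0.0522% of genes). None was among the 650. The clearest was Gng11, a G protein subunit, with a log2 fold change of 0.62 in number 1, -0.39 in number 2 and 1.67 in number 3 (edgeR adjusted p 0.00474). Over the 650 genes the median effect of those called higher was 0.47, 0.35 and 0.70 in numbers 1, 2 and 3, and of those called lower -0.34, -0.26 and -0.40. Leaving out all libraries of number 3 left 94 calls and leaving out Day13WD left 105.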

How the data were processed

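Read counts per gene were analysed for 24 libraries of RNA from cultured mouse fetal liver cells, 12 with miR-125b and 12 with a control construct. The deposited values are whole-number counts, 1 column per library, neither normalised nor pooled. The submitters' processing notes name fastp, HISAT2 2.0.5, featureCounts and the mm10 build. Strandedness, annotation release and filters are not given in the sources used here, so reads of overlapping genes and near-identical copies may be divided wrongly. Of 47069 gene identifiers 46488 matched a symbol in GENCODE M21 (GRCm38), from which coordinates and 3′ UTRs were taken.

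Counts were scaled by TMM (factors 0.932 to 1.04) and tested with edgeR 4.0.16 in R 4.3.3 by quasi-likelihood (robust, two-sided), with arm, condition and replicate number in the model and 17 residual degrees of freedom. Genes were kept by filterByExpr over the 8 groups (13419 genes), and Benjamini-Hochberg adjusted p under 0.05 was called. A gene near 0 in 1 arm was kept through the other arm, and could only be seen higher there. SEs derive from the F statistic. P-values measure the spread between these libraries, which may be technical in part. The replicate number was a block by the plan of the comparison and was not chosen from the data. For 84 same-numbered pairs drawn across groups, deviations from group means correlated by 0.163 to 0.781. On simulated counts for 13419 genes, 89% of 100 genes changed by 1 log2 and 64% of 100 changed by 0.5 were recovered, with 4 false calls. These counts were drawn from the fitted model with each library independent. The simulation therefore cannot show how many false calls arise if libraries of 1 arm and number share a culture.

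Interaction terms tested whether the effect differed between conditions or numbers. Alternatives were another model (limma 3.58.1, DESeq2 1.42.0, no block, counts summed per arm and number), scaling, filters, and leaving out libraries, numbers or conditions. Named genes were Gata1, Arid3a and the miR-125b loci, then the 12 higher and 12 lower called genes with the largest change among those with average log2 CPM of at least 2 and the same direction in at least 11 of 12 pairs, then up to 3 called members of each of 21 lists and the 3 lowest p of each interaction. Other called list members are also named. The members and lists were chosen with earlier results of these data known, so lists are described by counts and medians and got no test. Some genes that this rule names are not reported here.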

Additional observations from a re-analysis of the deposited data

Results flagged for a closer look

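In 4 genes all 3 pairs of 1 condition were higher with miR-125b and all 3 pairs of another were lower. Pmaip1, a proapoptotic gene, was higher at Day2 and Day10 and lower at Day13, with fitted log2 fold changes of 0.35, 0.74 and -0.06 (edgeR adjusted p 0.1049 for the interaction with condition). Gm14303 was lower at Day10 (-1.72) and higher at Day13 (1.98), with an adjusted p of 0.05681. Sf3b4, a splicing factor gene, was lower at Day10 (-0.46) and higher at Day13 (0.34) and Day13WD (0.26), also at 0.05681. Trmt61a, a transfer RNA methyltransferase gene, was lower at Day10 (-0.84) and higher at Day13 (0.51) and Day13WD (0.54), again at 0.05681. None of these 4 interactions passed the threshold.

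In 7 genes the effect of miR-125b differed between the replicate numbers by the interaction test. Gng11 had an edgeR adjusted p of 0.004744. Sdc2, a cell surface proteoglycan gene, had log2 fold changes of 1.73, -0.18 and 2.75 in numbers 1, 2 and 3 (adjusted p 0.04186). Aldh3a1, an aldehyde dehydrogenase gene, had -0.41, 0.79 and 1.61 (adjusted p 0.04186). Arhgap27 and Muc6 had the same adjusted p of 0.04186, and Col1a2 and Slc35f2 were just inside the threshold at 0.04999. Leaving out single libraries moved this count from 7 to between 1 and 149.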

How the results depend on the processing

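All 650 genes called in the shared effect kept their sign in each alternative, except that 649 did without replicate number 2 and that the stricter filter tested 577 of them. The number called was most sensitive to how replicate numbers and conditions entered. It fell from 650 to 130 with no replicate block, to 45 on counts summed per arm and number and to 415 with limma-voom and an estimated correlation of 0.0554, and it was 922 with DESeq2. Without Day2, Day10 or Day13WD it was 421, 195 or 105, and without Day13 it was 727. Leaving out single libraries or replicate numbers gave 94 to 726. The cause of these differences was not tested. The fits that left libraries out also held fewer libraries. Other scalings gave 613 to 650 calls, with higher genes at 53.2% to 59.5% against 53.1% with TMM.

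The interaction with condition was called for 0 genes, for 666 with DESeq2, and for 0 to 785 without single libraries. The interaction with replicate number was called for 7 genes, for 150 with DESeq2, and for 1 to 149 in the same way. The share of called lower genes with a 7-base seed match was 38.5%. Counting this share again in the other fits was chosen after seeing the data. The share was 69.4% with no replicate block (34 of 49 genes), 28.1% without Day2 and 47.6% without Day10. Without single libraries or numbers it ran from 36.4% to 44.8%. Among other results, 398 values of single genes in the alternatives lost their call and none changed sign. Medians of lists near 0, such as the mast cell and basophil list, changed sign in some alternatives, and that of the cholesterol list did in 1.

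Depth limits genes at a few counts per library, such as Ctsg, Cebpe and Elane. The labels do not say what a replicate number shares.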
